A study of Mus musculus with 27 samples.

Results

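The 45 genes described here encode the machinery of mitosis: Cdk1 and its cyclins, the mitotic kinases, the kinetochore and its checkpoint, the spindle motors, the proteins that trigger anaphase, and those that build the midzone and divide the cell. They were matched by gene name in a table of 54532 genes measured by RNA sequencing in dorsal skin of C3H mice, and all 45 were among the 17232 genes tested. The set was put together with earlier results of these data known, so the counts of its members below describe it and are not independent evidence of its direction. The 9 TDM libraries came from skin given the compound labelled TDM10842, a thyroid hormone receptor agonist, applied to the skin in 60 µl at 0 and 24 h. The 9 Vehicle libraries came from skin given the solvent of TDM10842 on the same schedule, and the 9 Blank libraries from skin given neither. The age and sex of the mice, the dose of TDM10842 and the time of sampling after the applications are not given in the sources used here, nor is it stated that each library came from its own mouse. The p-values below therefore measure the spread between libraries, which may be partly technical. The libraries held 15412332 to 17599066 counted reads. The lowest count of any of the 45 genes in any library was 21, and libraries of a group always differed by more than sampling noise. The extraction text of the labels speaks of retinas, but the keratinocyte keratins Krt14 and Krt5 averaged 2117 and 2280 CPM (read counts scaled to a common library size) over the 27 libraries. Among the marker genes of a list for retina, the highest mean in any group was 3.002 CPM.

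A cell enters mitosis when Cdk1, bound to cyclin B, is switched on by the phosphatase Cdc25c. Kinetochores built on the centromeres then catch spindle fibres, and the spindle checkpoint holds the cell until every chromosome is attached. Cdc20 then directs the anaphase-promoting complex to destroy securin and cyclin B, so that separase can act and the sister copies of each chromosome can part. Most of these genes are transcribed late in the cell cycle, in G2 and mitosis, when the factors Mybl2 and Foxm1 act on their promoters together with the MuvB complex. In quiescent cells the related DREAM complex keeps them off. The DNA element read by MuvB is the cell cycle genes homology region (CHR), with the letters TTTGAA, often found near CCAAT boxes, which bind the factor NF-Y. In skin, dividing cells sit mainly in the basal epidermis and in the matrix at the base of growing hair follicles.

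The promoters are shown first, since many of the 45 genes hold these 2 motifs, TTTGAA and CCAAT. Whether the motifs bear on the levels in these libraries was not tested. RefSeq promoter windows of build GRCm38.p6, reaching from 250 bases before to 50 bases after a start of transcription, were at hand for 35 of the 45 genes, in 37 windows. TTTGAA (or TTCAAA on the other strand) lay in 26 of the 37 windows, or 70.3%, against 17.9% of all 32851 windows of the same length. CCAAT (or ATTGG) lay in 27 of 37 windows, or 73.0%, against 37.4% of all windows, and both motifs lay in 23 windows, or 62.2%, against 6.95%. Ect2 and Prc1 each entered with overlapping windows that hold both motifs. Counted by gene, 24 of 35 held TTTGAA, 25 held CCAAT and 21 held both. The variant TTTAAA, which is its own reverse complement, was found in 9 windows, or 24.3%, against 13.2% of all windows, and 7 windows, or 18.9%, held neither TTTGAA nor CCAAT, against 51.7% of all. Neither motif is contained in the other, and a match is a description of the letters only. The 100 bases just before the start are printed below, 5′ to 3′ on the gene's strand. They are given for 7 genes that hold both motifs there, and for Anln and Mybl2, which hold neither in these bases and had the smallest and the largest change with TDM against Vehicle. Anln does hold TTTGAA on both strands in the part of its window after the start, which is not printed. Capitals mark TTTGAA and CCAAT on either strand.
Cdk1, chr10:69352913-69353012, minus strand: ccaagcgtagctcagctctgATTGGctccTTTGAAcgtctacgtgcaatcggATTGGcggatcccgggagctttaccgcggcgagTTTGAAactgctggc
Cdc20, chr4:118437344-118437443, minus strand: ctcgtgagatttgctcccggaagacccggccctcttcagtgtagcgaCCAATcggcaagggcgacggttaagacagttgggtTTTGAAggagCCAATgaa
Top2a, chr11:99024190-99024289, minus strand: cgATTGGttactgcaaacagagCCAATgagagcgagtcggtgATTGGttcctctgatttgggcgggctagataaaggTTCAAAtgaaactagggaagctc
Kif11, chr19:37376282-37376381, plus strand: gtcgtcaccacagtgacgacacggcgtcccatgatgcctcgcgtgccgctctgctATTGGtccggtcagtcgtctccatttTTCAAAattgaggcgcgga
Espl1, chr15:102296193-102296292, plus strand: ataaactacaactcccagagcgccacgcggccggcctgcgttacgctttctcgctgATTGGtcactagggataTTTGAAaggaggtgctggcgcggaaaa
Prc1, chr7:80294376-80294475, plus strand: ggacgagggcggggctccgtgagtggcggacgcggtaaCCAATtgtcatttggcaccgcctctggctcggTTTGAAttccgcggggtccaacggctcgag
Ube2c, chr2:164769829-164769928, plus strand: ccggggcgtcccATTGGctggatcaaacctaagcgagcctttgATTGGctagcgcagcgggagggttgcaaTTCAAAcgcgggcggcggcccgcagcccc
Anln, chr9:22389207-22389306, minus strand: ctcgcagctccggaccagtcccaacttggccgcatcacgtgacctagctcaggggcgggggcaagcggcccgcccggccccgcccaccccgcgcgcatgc
Mybl2, chr2:163054535-163054634, plus strand: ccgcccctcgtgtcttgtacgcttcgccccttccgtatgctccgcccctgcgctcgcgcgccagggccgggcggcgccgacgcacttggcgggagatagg
Cdk1 carried 2 copies of each motif in these 100 bases, Top2a 3 CCAAT boxes and 1 TTCAAA, and Cdc20 2 CCAAT boxes and 1 TTTGAA close to the start.

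**Figure D1:**
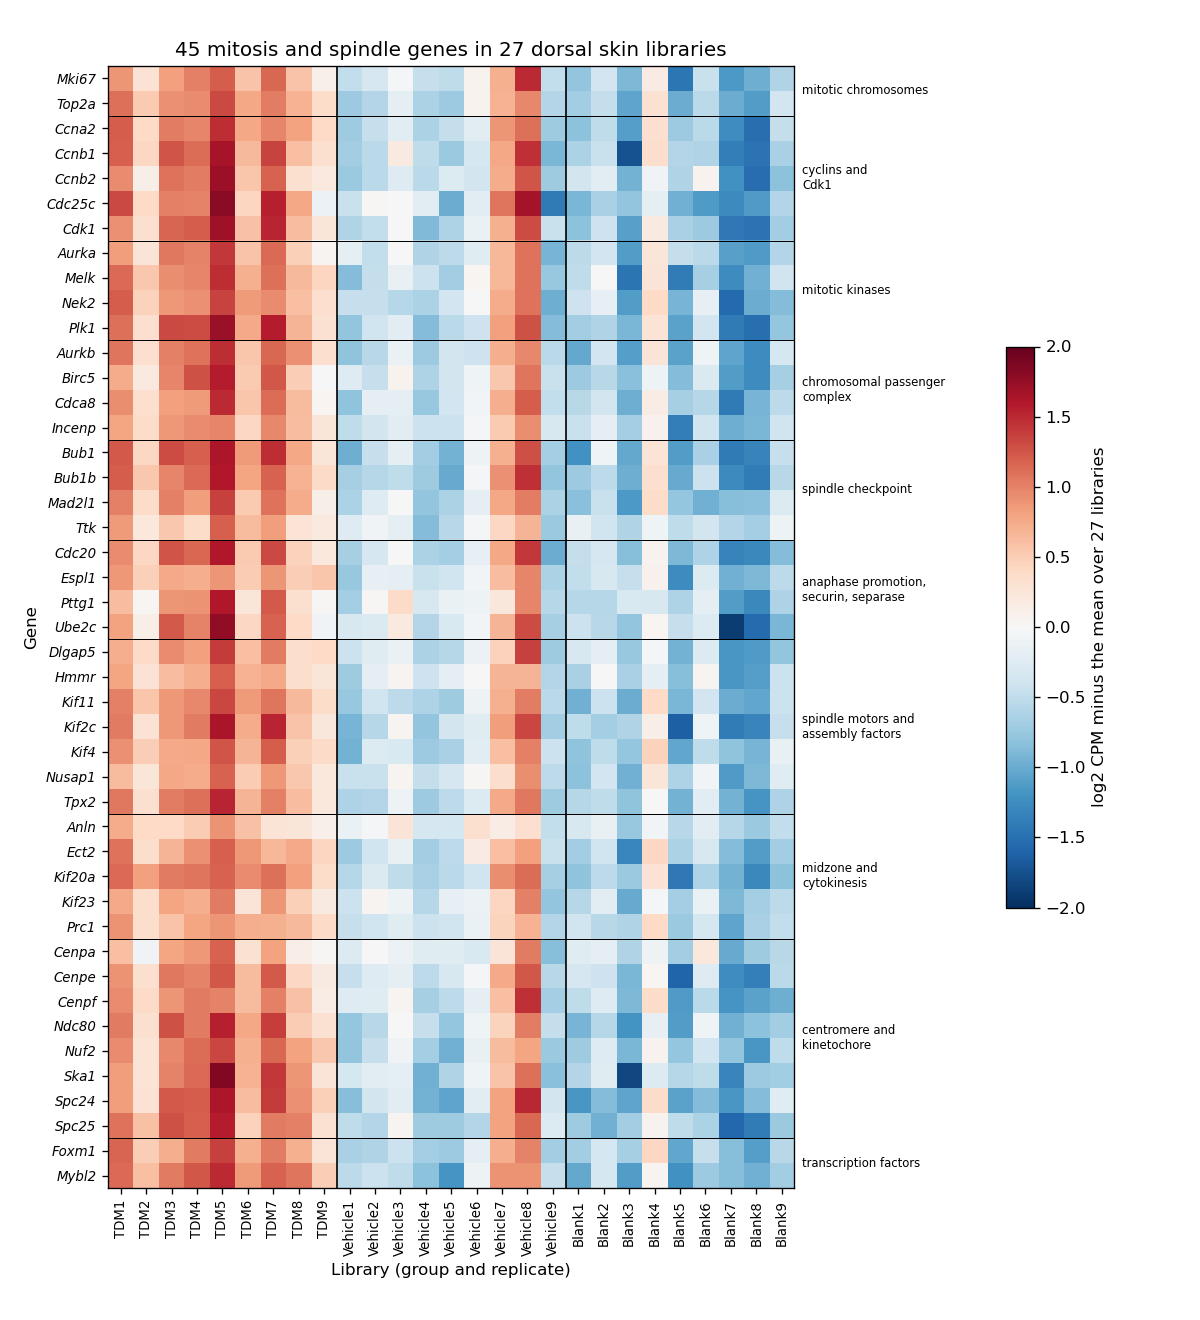
Level of each of the 45 genes (rows, by role) in each of the 27 libraries (columns, TDM, Vehicle and Blank from left to right), as log2 CPM minus the gene's mean over the 27 libraries; red is above and blue below that mean. The TDM libraries were mostly red, the Blank libraries mostly blue, and Vehicle replicates 7 and 8 stood out from the other 7 Vehicle libraries in nearly every row.

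Set against Vehicle, TDM skin had higher levels of nearly the whole set. By edgeR's quasi-likelihood test with Benjamini-Hochberg adjustment over all 17232 genes, 41 of the 45 rose (adjusted p under 0.05) and 0 fell, where 12.0% of all tested genes rose and 11.7% fell. All 45 fold changes were above 0. Their median log2 fold change was 0.88, with a range of 0.48 for Anln to 1.11 for Mybl2, and the median over all tested genes was 0.013. The 4 that missed the threshold were Mki67, Cenpf, Cdc25c and Ube2c, with adjusted p of 0.0527 to 0.0744; all 4 passed when Vehicle replicate 7, or replicate 8, was left out. Of the 41, 33 passed in each of the 27 fits that left out 1 library. Cenpa and Cenpe were lost in 14 and 12 of those fits, Ccnb2, Cdca8, Kif2c, Pttg1 and Dlgap5 without TDM replicate 5 or Vehicle replicate 1, and Ccnb1 without Vehicle replicate 1. The 45 genes together summed to 1135 to 2443 CPM (median 1825) in the TDM libraries, against 593.3 to 2035 CPM (median 779.3) in the Vehicle libraries. All 9 TDM libraries lay above the Vehicle median for each of the 45 genes, but for none of the 45 did the groups separate completely, since Vehicle replicate 7 or 8 reached into the TDM range. For comparison, 0.261% of all tested genes were higher in every TDM library than in every Vehicle library. Markers of skeletal muscle fell in TDM skin, and with their score as a covariate 1 of the 45 genes, Ndc80, rose against Vehicle. In that fit 44 had an unadjusted p under 0.05, the median log2 fold change was 0.81 and the median standard error 0.29 in place of 0.24.

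Against Blank, skin given nothing, all 45 genes rose with TDM and 0 fell, where 11.6% of all tested genes rose and 4.63% fell. The median log2 fold change was 1.46, with a range of 0.89 for Anln to 1.83 for Cdc25c, against -0.02 over all tested genes, and the adjusted p ran from 4.02e-05 for Mybl2 to 0.00187 for Cenpa. The Blank libraries summed to 442.3 to 1071 CPM (median 605.2) over the 45 genes. For 28 of the 45 genes every TDM library lay above every Blank library, which held for 1.86% of all tested genes, and for 16 of the other 17 the highest Blank library was replicate 4. This comparison uses the same TDM libraries as the one against Vehicle, so they are not independent. All 45 calls remained with the muscle score as a covariate.

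**Figure D2:**
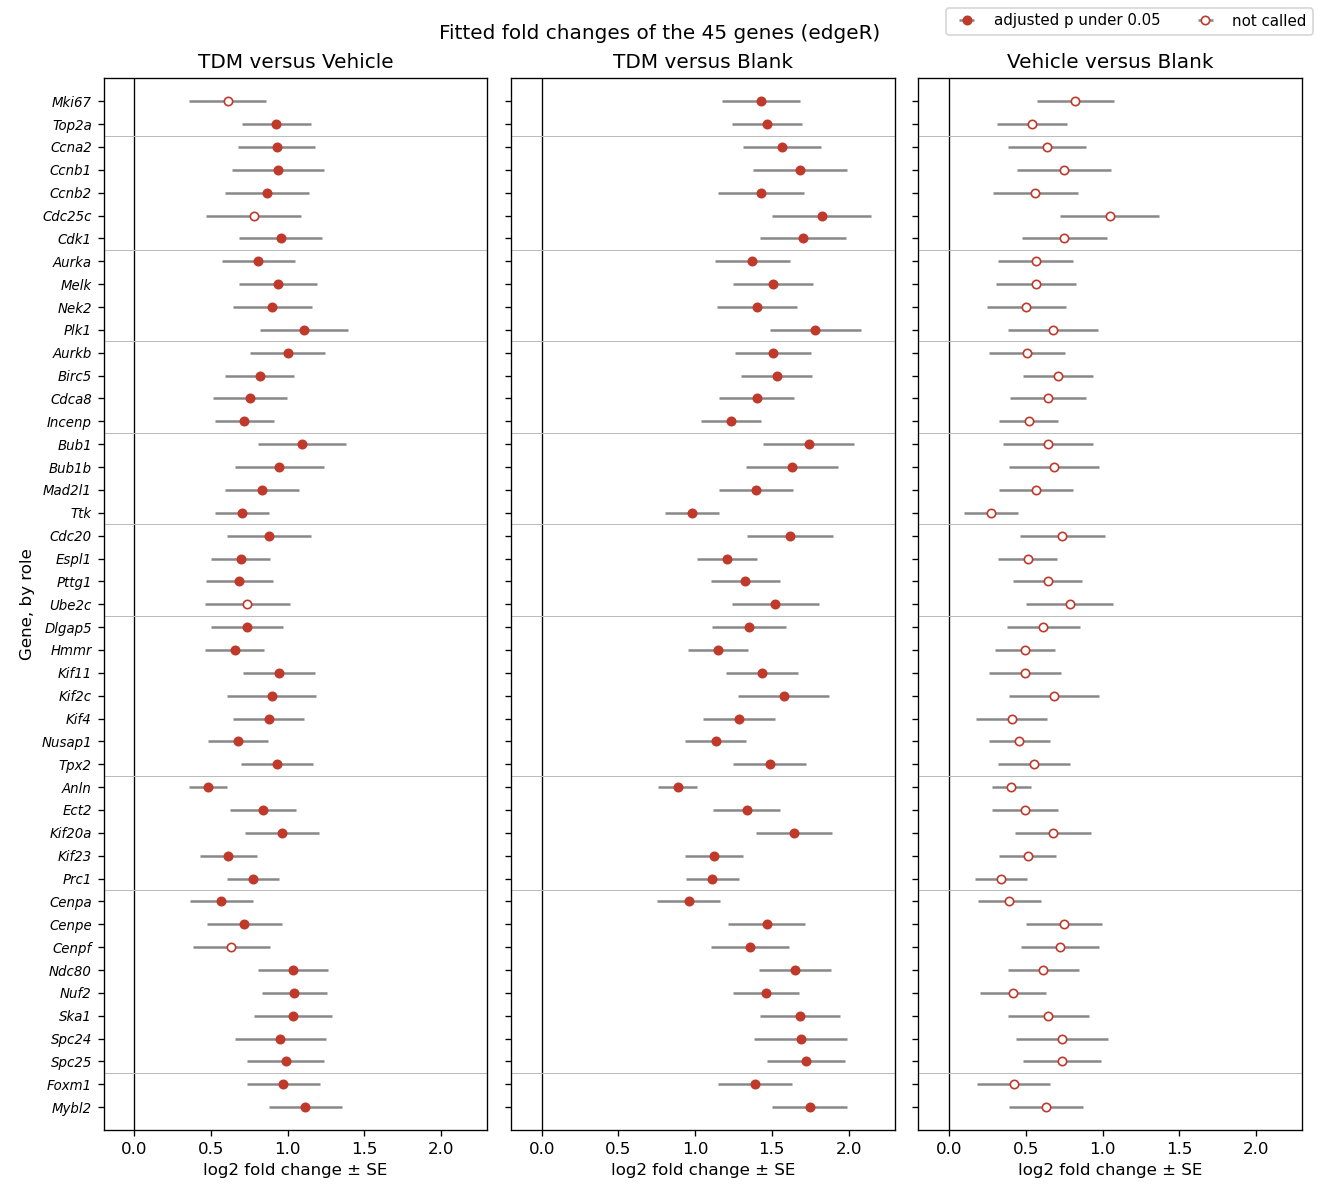
Fitted log2 fold change (points) with its standard error (bars) for each of the 45 genes, ordered by role, for TDM against Vehicle, TDM against Blank and Vehicle against Blank; filled points passed an adjusted p of 0.05. Filled points make up 41 of 45, 45 of 45 and 0 of 45, and all points lie to the right of 0.

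The core engine of mitotic entry, Cdk1 and its partners, rose with TDM against Vehicle for 4 of 5 members, with a median log2 fold change of 0.93. Cdk1, the kinase itself, ranged from 26.9 to 73.3 CPM (median 43.04) in TDM skin, from 12.3 to 56.1 CPM (median 16.7) in Vehicle skin and from 8.15 to 25.9 CPM (median 13.8) in Blank skin. Every TDM library exceeded every Blank library, and 7 of the 9 Vehicle libraries lay below the lowest TDM library. For Cdk1 the fitted log2 fold change was 0.95 ± 0.27 (SE, adjusted p = 0.014) against Vehicle and 1.71 ± 0.28 (adjusted p = 0.000212) against Blank. Ccnb1, cyclin B1, the subunit that turns Cdk1 into the mitotic kinase, had 27.9 to 70.2 CPM (median 48.5) with TDM, 11.8 to 61.8 CPM (median 15.7) with Vehicle and 6.71 to 28.5 CPM (median 14.4) in Blank. Its log2 fold change was 0.94 ± 0.30 (adjusted p = 0.0255) against Vehicle and 1.69 ± 0.31 (adjusted p = 0.000454) against Blank, and the lowest TDM library fell just under Blank replicate 4. Ccnb2 and Ccna2, cyclins B2 and A2, rose by 1.82-fold and 1.90-fold against Vehicle. Cdc25c, the phosphatase that removes the inhibitory marks from Cdk1, had the lowest FPKM of these 5 in every group. It was at 3.89 to 14.8 CPM (median 8.44) in TDM, 1.59 to 13.4 CPM (median 3.67) in Vehicle and 1.76 to 3.69 CPM (median 2.25) in Blank. All 9 TDM libraries lay above all 9 Blank libraries, with a log2 fold change of 1.83 ± 0.32 (adjusted p = 0.000352), while the value against Vehicle, 0.78 ± 0.31, missed the threshold at an adjusted p of 0.0651.

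Both transcription factors of the set rose. Mybl2, which joins MuvB at CHR promoters, had the highest fold change of the 45 against Vehicle: 11.2 to 22.5 CPM (median 16.8) in TDM skin, against 3.53 to 15.03 CPM (median 5.83) in Vehicle skin and 3.47 to 8.37 CPM (median 4.45) in Blank skin. For Mybl2 the fit gave log2 fold changes of 1.11 ± 0.24 (adjusted p = 0.00281) against Vehicle and 1.75 ± 0.24 (adjusted p = 4.02e-05) against Blank. Foxm1, the forkhead factor of the same promoters, had 27.8 to 59.9 CPM (median 38.5) with TDM, 14.01 to 46.2 CPM (median 15.3) with Vehicle and 10.8 to 30.8 CPM (median 14.7) in Blank. For Foxm1 the fit gave log2 fold changes of 0.97 ± 0.24 (adjusted p = 0.00628) against Vehicle and 1.39 ± 0.24 (adjusted p = 0.000299) against Blank. The Vehicle and Blank medians of Foxm1 were close to each other, and the TDM median was the one that stood apart.

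All 4 mitotic kinases outside the passenger complex rose against Vehicle, with a median log2 fold change of 0.92. Plk1, the Polo kinase needed for centrosome maturation and bipolar spindles, had 18.8 to 50.2 CPM (median 32.6) in TDM, 8.25 to 36.5 CPM (median 11.4) in Vehicle and 5.34 to 18.3 CPM (median 8.80) in Blank. Its log2 fold changes, 1.11 ± 0.29 (adjusted p = 0.00842) against Vehicle and 1.78 ± 0.29 (adjusted p = 0.000222) against Blank, were both the second highest of the 45. Aurka, Aurora A of the spindle poles, had 13.00 to 33.4 CPM (median 22.3) in TDM, 6.54 to 26.6 CPM (median 10.6) in Vehicle and 5.69 to 14.8 CPM (median 8.64) in Blank. For Aurka the fit gave log2 fold changes of 0.81 ± 0.24 (adjusted p = 0.0168) against Vehicle and 1.37 ± 0.24 (adjusted p = 0.000364) against Blank. Nek2, which separates centrosomes, and Melk rose by 1.86-fold and 1.92-fold against Vehicle.

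The chromosomal passenger complex, which corrects faulty attachments and later marks the cleavage site, rose as a whole, 4 of 4 against Vehicle, with a median log2 fold change of 0.79. Aurkb, its kinase Aurora B, had 23.5 to 52.0 CPM (median 37.4) in TDM, 10.7 to 36.0 CPM (median 13.9) in Vehicle and 7.74 to 22.2 CPM (median 9.17) in Blank. For Aurkb the fit gave log2 fold changes of 1.00 ± 0.24 (adjusted p = 0.00636) against Vehicle and 1.51 ± 0.25 (adjusted p = 0.000221) against Blank. Birc5, survivin, had 17.3 to 51.3 CPM (median 29.1) in TDM, 11.3 to 36.5 CPM (median 14.5) in Vehicle and 7.27 to 16.1 CPM (median 10.4) in Blank. For Birc5 the fit gave log2 fold changes of 0.82 ± 0.23 (adjusted p = 0.0114) against Vehicle and 1.53 ± 0.23 (adjusted p = 8.79e-05) against Blank. For both genes the TDM and Blank libraries did not overlap. Cdca8, borealin, rose by 1.69-fold and Incenp, the scaffold of the complex, by 1.64-fold against Vehicle.

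Centromere and kinetochore genes spread widely in size of change: 7 of 8 rose against Vehicle, from 0.57 for Cenpa to 1.04 for Nuf2, with a median log2 fold change of 0.97. Ndc80, whose product grips the spindle fibre, had 9.30 to 22.2 CPM (median 15.41) in TDM, 4.39 to 15.39 CPM (median 5.49) in Vehicle and 3.29 to 7.08 CPM (median 4.28) in Blank. For Ndc80 the fit gave log2 fold changes of 1.04 ± 0.23 (adjusted p = 0.00368) against Vehicle and 1.65 ± 0.23 (adjusted p = 5.03e-05) against Blank. Its partners in the Ndc80 complex, Nuf2, Spc24 and Spc25, rose by 2.06-fold, 1.93-fold and 1.98-fold against Vehicle, and Ska1, which steadies the same attachment, by 2.05-fold. Nuf2 had the lowest adjusted p of the 45 in that comparison, 0.00225. Cenpa, the histone variant that marks centromeres, moved least of the 8, at 31.8 to 75.1 CPM (median 50.4) in TDM, 18.4 to 68.1 CPM (median 28.2) in Vehicle and 16.6 to 38.5 CPM (median 22.6) in Blank. For Cenpa the fit gave 0.57 ± 0.20 (adjusted p = 0.0435) against Vehicle and 0.96 ± 0.21 (adjusted p = 0.00187) against Blank. Cenpe, a kinetochore motor, had a log2 fold change of 0.72 ± 0.25 (adjusted p = 0.0348) against Vehicle. Cenpf, a large protein of the outer kinetochore, had 28.1 to 52.3 CPM (median 46.9) in TDM, 15.9 to 70.3 CPM (median 21.7) in Vehicle and 11.3 to 33.0 CPM (median 13.7) in Blank. Its highest library of all 27 was Vehicle replicate 8, and it did not pass against Vehicle (0.63 ± 0.25, adjusted p = 0.0647) but rose against Blank (1.36 ± 0.26, adjusted p = 0.000593).

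The spindle checkpoint rose for 4 of 4 members against Vehicle, with a median log2 fold change of 0.89. Bub1, a checkpoint kinase, had 12.2 to 31.5 CPM (median 23.4) in TDM, 5.23 to 25.0 CPM (median 7.43) in Vehicle and 3.83 to 12.4 CPM (median 5.06) in Blank. For Bub1 the fit gave log2 fold changes of 1.09 ± 0.29 (adjusted p = 0.00924) against Vehicle and 1.74 ± 0.30 (adjusted p = 0.000271) against Blank. Bub1b, BubR1 of the complex that restrains Cdc20, had 21.9 to 50.7 CPM (median 33.1) in TDM, 8.29 to 45.9 CPM (median 11.3) in Vehicle and 6.33 to 21.0 CPM (median 10.1) in Blank. For Bub1b the fit gave log2 fold changes of 0.95 ± 0.29 (adjusted p = 0.0205) against Vehicle and 1.63 ± 0.30 (adjusted p = 0.000457) against Blank. Without Vehicle replicates 7 and 8, left out after their values were seen, the value of Bub1b against Vehicle was 1.58 ± 0.21, a fold over 1.5 times as large. Cdc25c (1.40) and Spc24 (1.55) moved as much, and no other of the 45 did. Ttk, the checkpoint kinase Mps1, was among the 3 smallest changes against Blank: it had 13.7 to 27.2 CPM (median 17.4) in TDM, 6.53 to 19.1 CPM (median 10.4) in Vehicle and 7.39 to 11.1 CPM (median 8.997) in Blank. Its Blank libraries were the tightest of the 45 genes, with a coefficient of variation of 15.9%. Fitted log2 fold changes of Ttk were 0.70 ± 0.17 (adjusted p = 0.00659) against Vehicle and 0.98 ± 0.18 (adjusted p = 0.00039) against Blank. Mad2l1, the Mad2 protein, rose by 1.78-fold against Vehicle.

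Of the 4 genes that trigger anaphase, 3 rose against Vehicle, with a median log2 fold change of 0.72. Cdc20, the activator of the anaphase-promoting complex, had 29.7 to 78.1 CPM (median 49.7) in TDM, 12.96 to 68.3 CPM (median 20.5) in Vehicle and 10.2 to 26.9 CPM (median 14.3) in Blank. For Cdc20 the fit gave log2 fold changes of 0.88 ± 0.27 (adjusted p = 0.0224) against Vehicle and 1.62 ± 0.28 (adjusted p = 0.000316) against Blank. Pttg1, securin, had 9.60 to 28.7 CPM (median 14.6) in TDM, 5.91 to 18.7 CPM (median 8.83) in Vehicle and 3.87 to 8.34 CPM (median 6.37) in Blank. For Pttg1 the fit gave log2 fold changes of 0.68 ± 0.22 (adjusted p = 0.0257) against Vehicle and 1.33 ± 0.22 (adjusted p = 0.000258) against Blank. Both genes were higher in every TDM library than in every Blank library. Espl1, separase, rose by 1.62-fold against Vehicle and was the most even of the 45 genes across the TDM libraries, which ranged from 33.2 to 44.3 CPM. Ube2c, the ubiquitin-conjugating enzyme of the complex, varied most across the TDM libraries, at 21.4 to 77.0 CPM (median 39.2), against 14.1 to 55.1 CPM (median 18.4) in Vehicle and 6.02 to 23.2 CPM (median 15.3) in Blank. It rose against Blank (log2 fold change 1.52 ± 0.28, adjusted p = 0.000549) and just missed the threshold against Vehicle (0.74 ± 0.28, adjusted p = 0.0527). Ube2c overlaps Tnnc2, a muscle troponin gene on the opposite strand, by 1662 bases, and Tnnc2 was counted at 0 to 7 reads in every library although other muscle genes were abundant; the sources used here do not say whether counting used strand.

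All 7 spindle motors and assembly factors rose against Vehicle, with a median log2 fold change of 0.88. Kif11, the Eg5 motor that pushes the spindle poles apart, had 30.7 to 60.6 CPM (median 43.5) in TDM, 14.2 to 48.5 CPM (median 16.6) in Vehicle and 11.7 to 31.4 CPM (median 12.8) in Blank. For Kif11 the fit gave log2 fold changes of 0.94 ± 0.23 (adjusted p = 0.00659) against Vehicle and 1.44 ± 0.24 (adjusted p = 0.00022) against Blank. Tpx2, which activates Aurora A on the spindle, had 30.3 to 75.5 CPM (median 52.6) in TDM, 15.8 to 54.5 CPM (median 18.2) in Vehicle and 11.6 to 26.2 CPM (median 17.0) in Blank. For Tpx2 the fit gave log2 fold changes of 0.93 ± 0.23 (adjusted p = 0.00703) against Vehicle and 1.49 ± 0.24 (adjusted p = 0.000169) against Blank. Tpx2 separated TDM from Blank completely, whereas the highest Blank library of Kif11 reached above the lowest TDM library. The other 5, Kif2c, Kif4, Nusap1, Hmmr and Dlgap5, rose by 1.57-fold (Hmmr) to 1.86-fold (Kif2c) against Vehicle.

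Midzone and cytokinesis genes also rose for 5 of 5 members against Vehicle, with a median log2 fold change of 0.77, and held the smallest change of the set. Anln, anillin, the scaffold of the contractile ring, had 34.5 to 60.2 CPM (median 42.5) in TDM, 22.8 to 40.4 CPM (median 31.6) in Vehicle and 19.02 to 30.9 CPM (median 23.0) in Blank. Its change was small but tight, 0.48 ± 0.13 (adjusted p = 0.00845) against Vehicle and 0.89 ± 0.13 (adjusted p = 5.09e-05) against Blank, and every TDM library exceeded every Blank library. Prc1, which bundles the midzone fibres, had 32.6 to 47.7 CPM (median 41.6) in TDM, 17.0 to 41.4 CPM (median 19.4) in Vehicle and 12.2 to 33.7 CPM (median 17.4) in Blank. For Prc1 the fit gave log2 fold changes of 0.77 ± 0.17 (adjusted p = 0.00351) against Vehicle and 1.11 ± 0.17 (adjusted p = 0.000114) against Blank. The exchange factor Ect2 and the motors Kif20a and Kif23 rose by 1.79-fold, 1.95-fold and 1.53-fold against Vehicle.

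Of the 2 genes of mitotic chromosomes, 1 rose against Vehicle and both rose against Blank. Top2a, topoisomerase II alpha, which untangles the chromosomes, had 117.4 to 225.6 CPM (median 171.4) in TDM, 54.7 to 177.4 CPM (median 60.6) in Vehicle and 42.1 to 112.6 CPM (median 56.3) in Blank. For Top2a the fit gave log2 fold changes of 0.93 ± 0.23 (adjusted p = 0.00627) against Vehicle and 1.47 ± 0.23 (adjusted p = 0.000139) against Blank. Mki67, the Ki-67 protein widely stained as a marker of dividing cells, had 128.9 to 280.0 CPM (median 213.1) in TDM, 84.9 to 337.8 CPM (median 95.6) in Vehicle and 44.5 to 135.0 CPM (median 69.8) in Blank. The highest of all 27 libraries for Mki67 was Vehicle replicate 8, and the log2 fold change against Vehicle, 0.61 ± 0.25, did not pass (adjusted p = 0.0744), while that against Blank, 1.43 ± 0.25, did (adjusted p = 0.000364). Whether Mki67 and Top2a differed from each other in their response was not tested.

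**Figure D3:**
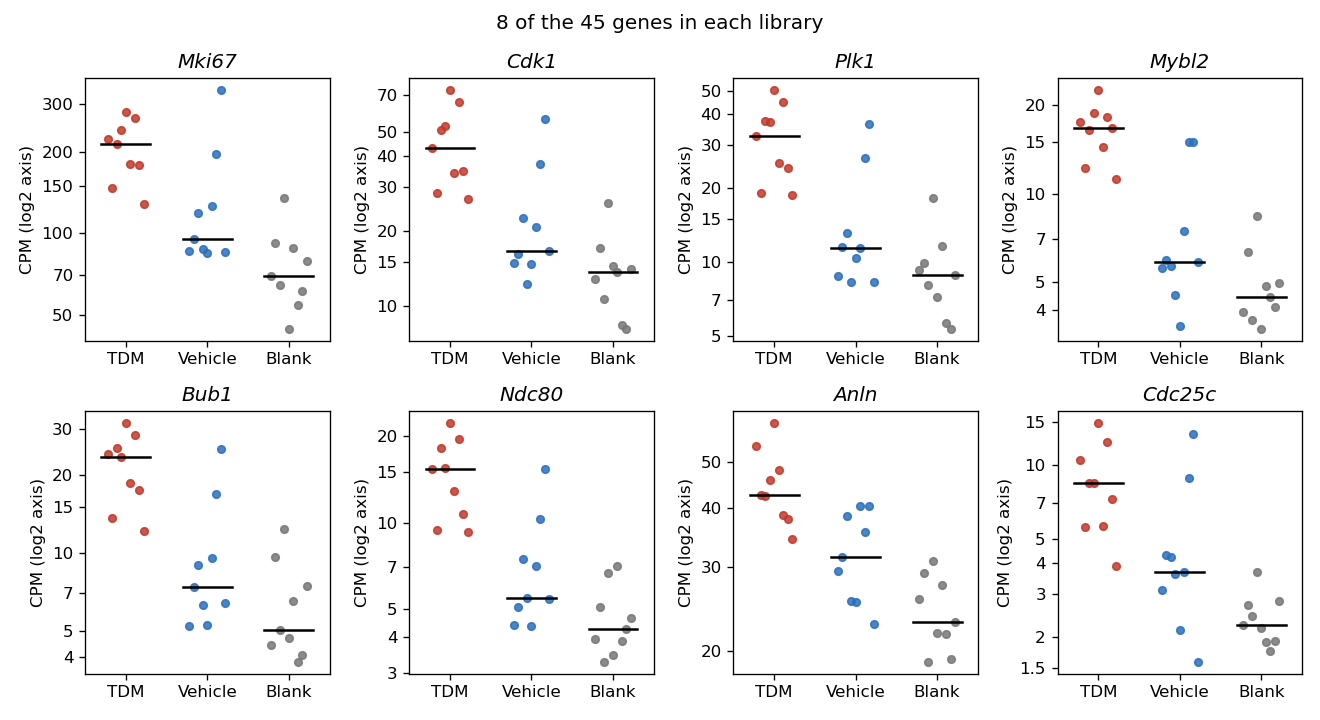
CPM of 8 of the 45 genes in each library (points, log2 axis), with the group median (line), for TDM, Vehicle and Blank from left to right. The TDM medians are the highest in every panel, and for each gene but Anln the 2 highest Vehicle points, replicates 7 and 8, lie well above the other 7.

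The solvent alone was compared with untreated skin as well. Between Vehicle and Blank, 0 of the 45 genes passed in either direction by the same edgeR test, where 0.894% of all tested genes rose and 1.86% fell, though 37 of the 45 had an unadjusted p under 0.05, against 4468 of 17232 tested genes. Leaving out Vehicle replicate 4 or 5 gave 3 calls each. By DESeq2, 8 of the 45 rose: Anln, Birc5, Cdc25c, Cenpe, Cenpf, Mki67, Pttg1 and Spc25. All 45 log2 fold changes were above 0, with a median of 0.61 against 0.02 over all tested genes. The 3 largest were those of Cdc25c (1.05 ± 0.32, adjusted p = 0.0632), Mki67 (0.82 ± 0.25, adjusted p = 0.0621) and Ube2c (0.78 ± 0.28, adjusted p = 0.0955), and the 3 smallest those of Ttk (0.27 ± 0.18, adjusted p = 0.313), Prc1 (0.34 ± 0.17, adjusted p = 0.207) and Cenpa (0.39 ± 0.20, adjusted p = 0.221). Group medians ran in the order TDM, Vehicle, Blank for all 45 genes. With Vehicle replicates 7 and 8 left out, the 45 genes had a median of 0.16. Only 1 of them then had an unadjusted p under 0.05, and 1, Foxm1, lay below 0. The Vehicle libraries enter both this comparison and the one with TDM.

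The Vehicle group was the least even. Across the 45 genes the median coefficient of variation was 25.9% in TDM, 54.1% in Vehicle and 35.0% in Blank, against 19.4%, 22.4% and 17.7% over all tested genes. Vehicle replicate 8 was the highest Vehicle library for 44 genes and replicate 7 for the remaining one, Mybl2, and these were the 2 highest Vehicle libraries for 43 genes. Summed over the 45 genes they reached 2035 CPM (replicate 8) and 1527 CPM (replicate 7), while the other 7 Vehicle libraries lay at or below 969.7 CPM. For 39 genes these 7 lay below all 9 TDM libraries, and the exceptions were Birc5, Cenpa, Anln, Pttg1, Ube2c and Cdc25c. The 7 are what remained once the 2 highest were set aside after their values were seen, which favours such a separation. The share of all tested genes that separate in this way was not computed. With all 9 Vehicle libraries, 0 of the 45 genes separated. Replicate 8 held the highest value of all 27 libraries for Mki67, Cenpe, Cenpf and Espl1. Leaving out both, a choice made after seeing the values, gave 45 of 45 genes higher in TDM than in Vehicle, with a median log2 fold change of 1.35. Within TDM, replicate 5 was the highest library for 43 genes and replicate 9 the lowest for 35, and within Blank, replicate 4 was the highest for 39.

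Levels between genes were compared on FPKM, the authors' values per gene length and depth. In TDM skin the 45 genes spanned 2.24 FPKM for Ndc80 to 26.1 FPKM for Cdc20, with a median of 6.16 FPKM, against a median of 3.52 FPKM in Vehicle and 2.48 FPKM in Blank. Cdc20 led in all 3 groups, with a mean of 26.1 FPKM in TDM, 14.3 FPKM in Vehicle and 8.61 FPKM in Blank, followed in TDM by Ccnb2 (20.8 FPKM), Mki67 (20.2 FPKM), Top2a (18.2 FPKM) and Ube2c (15.5 FPKM). Ndc80, at 2.24 FPKM in TDM, 1.10 FPKM in Vehicle and 0.722 FPKM in Blank, was the lowest in every group. These depend on the gene length the authors used, and 10 of the 45 genes overlap another protein-coding gene.

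Genes of the wider cell cycle, from lists of other pathway members, were read beside the 45. Of 74 further mitotic genes, 61 rose and 0 fell with TDM against Vehicle (median log2 fold change 0.72), and 72 rose and 0 fell against Blank (median 1.200). Among them Plk4, which licenses centriole duplication, averaged 20.5 ± 3.78 CPM in TDM and 12.1 ± 3.64 CPM in Vehicle (SD, n = 9 each; adjusted p = 0.00284 in the edgeR fit), and the condensin subunit Ncapg2 had 36.3 ± 4.59 CPM in TDM and 20.7 ± 8.19 CPM in Vehicle (adjusted p = 0.00347 in the edgeR fit). DNA replication genes rose for 33 of 43 members against Vehicle (median 0.77) and for 41 of 43 against Blank (median 1.14), with 0 lower in either. They included Rrm2, a ribonucleotide reductase subunit, with a log2 fold change of 1.17 ± 0.23 (adjusted p = 0.00192), and Mcm7, of the replicative helicase, with 0.76 ± 0.16 (adjusted p = 0.00243), both against Vehicle. Subunits and partners of the anaphase-promoting complex, which works on several of the 45 proteins, had small values: 6 of 16 rose and 1 fell against Vehicle, with a median of 0.14. The lowest adjusted p of the 16 were those of Anapc2 (0.15 ± 0.04, adjusted p = 0.0119) and Cdc16 (0.20 ± 0.06, adjusted p = 0.0208), and the gene that fell was Anapc5 (-0.32, adjusted p = 0.034). Against Blank 8 of 16 rose and 0 fell.

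Of 26 G1 cyclins, Cdks, E2F factors and their partners, pocket proteins and MuvB subunits, 15 rose and 1 fell against Vehicle (median log2 fold change 0.39). Against Blank 16 rose and 0 fell. Lin54, the MuvB subunit that binds the CHR, rose by 1.42-fold against Vehicle (adjusted p = 0.000871), with means of 20.9 ± 1.54 CPM in TDM and 14.8 ± 2.17 CPM in Vehicle (SD, n = 9 each). Rbbp4, another MuvB subunit, rose by 1.30-fold (adjusted p = 0.00245). Among 18 Cdk inhibitors and arrest genes, 3 rose and 3 fell against Vehicle (median -0.05), and 1 rose and 3 fell against Blank. Of all tested genes, 12.0% rose and 11.7% fell against Vehicle, and 11.6% rose and 4.63% fell against Blank. The counts against Vehicle are near those shares and are not read as a response of the list. Ccng1, cyclin G1, a p53 target, fell to 243.4 ± 53.2 CPM in TDM, against 456.9 ± 157.7 CPM in Vehicle (SD, n = 9 each; log2 fold change -0.91, adjusted p = 0.00123), and the Cdk4 and Cdk6 inhibitor Cdkn2c rose by 1.46-fold (adjusted p = 0.0181). Between Vehicle and Blank, 2 of the 74 further mitotic genes rose and 0 fell by the edgeR test. They included Bora, an activator of Aurora A, which rose by 1.78-fold (adjusted p = 0.0377). In the same test 1 of the 16 anaphase-promoting complex subunits rose and 1 of the 18 arrest genes fell. Of the 43 replication genes and the 26 genes of the G1 and MuvB list, 0 passed in either direction. That test called 475 of all 17232 genes, but 0 in 7 of the 27 fits that left out 1 library, and DESeq2 called 1433.

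Marker genes of skin cell types moved with the 45 genes in part. In these whole-skin samples, fewer cells of a type and less RNA per cell cannot be told apart. Of the 19 markers of growing follicle matrix and root sheath in the table, 16 were tested, and 10 rose and 0 fell against Vehicle (median log2 fold change 1.62), and 12 rose and 0 fell against Blank (median 2.28). Their summed level was 161.5 to 733.8 CPM in TDM, 98.3 to 376.6 CPM in Vehicle and 92.05 to 206.6 CPM in Blank. The libraries that led the 45 genes led these markers as well. TDM replicate 5 had 733.8 CPM and Blank replicate 4 had 206.6 CPM, each the highest of its group. Vehicle replicates 8 and 7 had 376.6 and 251.8 CPM against at most 171.8 CPM in the other Vehicle libraries. Krt72 was at 0 in every Blank library, and no other marker of that list was at 0 throughout a group. Of 12 basal keratinocyte markers, 0 rose and 8 fell against Vehicle (median -0.54), while 1 rose and 1 fell against Blank (median -0.20). They summed to 5299 to 8266 CPM in TDM, 5401 to 15380 CPM in Vehicle and 5042 to 9720 CPM in Blank, and none was at 0. The part of these cell types in the levels of the 45 genes was not tested.

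**Figure D4:**
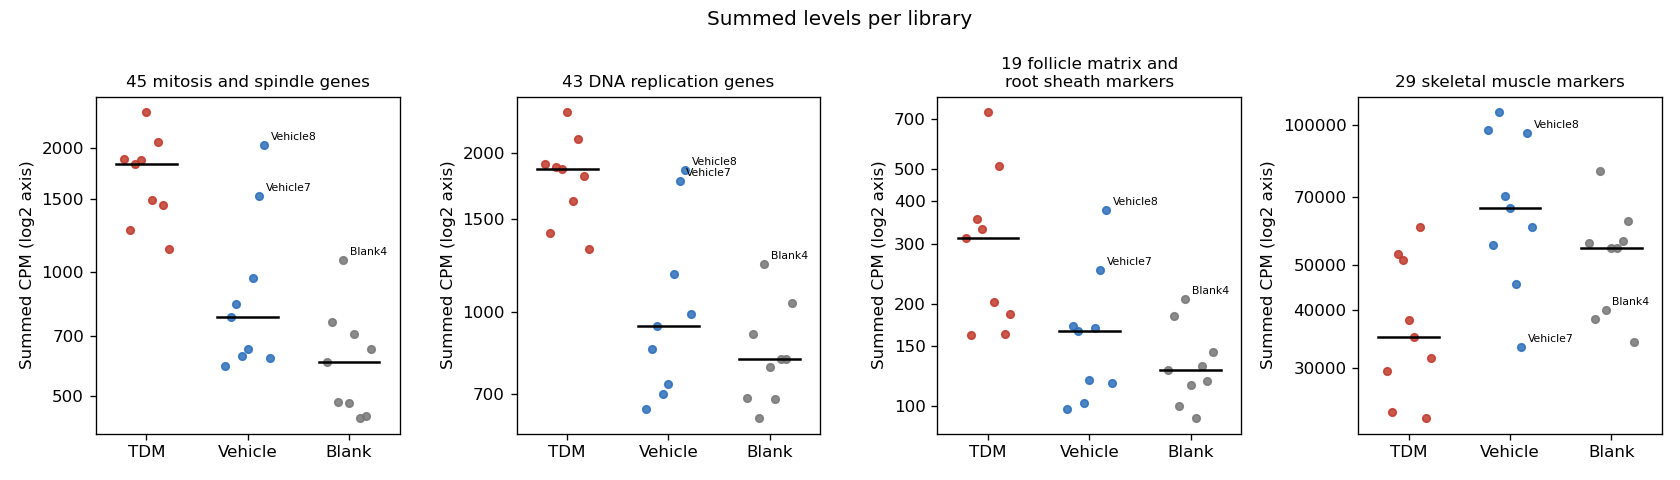
Summed CPM per library (points, log2 axis) with group medians (lines) for the 45 mitosis and spindle genes, 43 DNA replication genes, 19 follicle matrix and root sheath markers and 29 skeletal muscle markers, for TDM, Vehicle and Blank from left to right; Vehicle replicates 7 and 8 and Blank replicate 4 are named. The named libraries sit at or near the top of their group in the first 3 panels, while in the muscle panel Vehicle replicate 7 is the lowest Vehicle library and replicate 8 the third highest.

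Skeletal muscle markers fell with TDM for 23 of 27 tested members against Vehicle (median log2 fold change -0.96), with 0 higher, and for 2 of 27 against Blank (median -0.51), with 0 higher. Their sum was 23450 to 60530 CPM in TDM, 33340 to 106700 CPM in Vehicle and 34230 to 79520 CPM in Blank, and no marker of the list was at 0 throughout a group. The 2 Vehicle libraries highest in the 45 genes lay far apart on muscle markers, at 96030 CPM in replicate 8 and 33340 CPM in replicate 7. Melanocyte markers rose for 6 of 8 members and fibroblast markers for 7 of 11 against Vehicle, with 0 lower in either list. Against Blank, 5 of 8 melanocyte markers and 1 of 11 fibroblast markers rose, with 0 lower, and the fibroblast median was 0.16, against 0.91 in the comparison with Vehicle. Between Vehicle and Blank the fibroblast median was -0.79. Melanocyte markers summed to 247.1 to 844.4 CPM in TDM, 84.3 to 591.7 CPM in Vehicle and 166.1 to 329.6 CPM in Blank, and fibroblasts to 6416 to 51850 CPM in TDM, 3705 to 32990 CPM in Vehicle and 17540 to 36930 CPM in Blank. Vehicle replicates 8 and 7 led the melanocyte markers too, at 591.7 and 432.4 CPM against at most 267.8 CPM in the other Vehicle libraries. Blank replicate 4 led its group at 329.6 CPM, but in TDM replicate 7 (844.4 CPM) lay above replicate 5 (682.2 CPM). Leukocyte markers passed for 1 of 15 (lower) against Vehicle and 2 of 15 (lower) against Blank, and endothelial markers for 0 of 8 in both.

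The authors' deposited table carries its own fold changes for the same comparisons. By the authors' deposited table, TDM against Vehicle raised all of the 45 genes but Mki67, Cenpf and Cdc25c at an adjusted p under 0.05 (42 genes), and TDM against Blank raised all 45. For Vehicle against Blank that source, the authors' deposited table, has 5 of the 45 higher, Mki67, Birc5, Anln, Pttg1 and Cdc25c, and 0 lower. How many of all genes pass in that source was not computed for any comparison. Its counts for the 45 genes are therefore not set against a background. The medians over the 45 genes in the authors' deposited table were 0.87 for TDM against Vehicle, 1.44 for TDM against Blank and 0.61 for Vehicle against Blank, on the log2 scale.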

How the data were processed

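RNA sequencing of 27 dorsal skin libraries, 9 each of TDM, Vehicle and Blank, was read from 1 table. The authors deposited raw read counts per gene, whole numbers without normalization per the file headers, and FPKM (fragments scaled by gene length and depth) made by the authors. The table also holds the authors' log2 fold changes and the authors' adjusted p-values, deposited for the 3 comparisons. Bowtie 0.12.2 and mm9 are named in the submitters' processing notes, while the gene coordinates in the table are those of GRCm38, so no gene coordinates from the table are printed and promoters carry RefSeq's own build. Whether counting used strand is not stated.

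Counts were tested with edgeR 4.0.16 (R 4.3.3): TMM scaling, filterByExpr with a minimum count of 10 and total of 15, a robust quasi-likelihood fit over all 27 libraries, and Benjamini-Hochberg adjustment over 17232 genes, holding 99.86% of reads; calls were made at an adjusted p of 0.05. CPM are edgeR values after TMM. No column of per-sample values was left unused. DESeq2 1.42.0 and limma 3.58.1 on log2(FPKM + 1) and log2(FPKM + 0.1) were alternatives. On data simulated for TDM against Vehicle over 17232 genes, edgeR found 82 of 100 true 2-fold changes and 60 of 100 true 1.5-fold changes. It also called 11 genes without a change. The simulation changed far fewer genes than the 4090 called in the data. Whether it carried the joint movement of the mitosis genes was not checked. Nor was their uneven spread, with a median coefficient of variation of 54.1% in Vehicle and 25.9% in TDM. The simulated shares are therefore not read as detection rates for these libraries. Libraries of a group were compared by chi-square over genes; the lowest value per degree of freedom was 8.03 over 108 pairs, so no 2 libraries agreed within counting noise; preparations from 1 mouse would not be seen this way. Named genes were 20 members chosen by role, the 3 largest and 3 smallest changes of each comparison, members not called, and the 2 lowest p of each pathway list, except 1 gene that is not reported here. Nuf2, Espl1 and the promoters printed were picked after their values were seen. The members and the lists were chosen with earlier results of these data known. Figures were drawn with matplotlib 3.10.9.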

Additional observations from a re-analysis of the deposited data

Results flagged for a closer look

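In 5 of the 135 sets of 9 libraries (45 genes in 3 groups), the highest or lowest library stood apart from the others by more than Dixon's 95% limit on the log2 CPM scale. Chance flags about 1 in 20 such sets, or about 6.75 of 135. The 45 genes moved together across the same libraries, so the sets are not independent. The count of 5 therefore cannot show whether the flags arose by chance. Kif20a was low in TDM replicate 9, at 3.993 log2 CPM. The other 4 were all high values of Blank replicate 4: Top2a at 6.816, Kif11 at 4.978, Prc1 at 5.08 and Foxm1 at 4.952 log2 CPM. Blank replicate 4 was also the highest Blank library for 39 of the 45 genes. Its summed level of the 45 genes was the highest of its group, at 1071 CPM. Vehicle replicates 7 and 8 were not singled out by this limit, since each lies beside the other.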

How the results depend on the processing

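For TDM against Blank all 45 genes rose under each alternative, including each of the 27 fits without 1 library. For TDM against Vehicle, 41 rose in the main analysis, 34 with no filter on low counts, 40 with the 2 groups alone, 41 with RLE scaling, 42 with a filter at a mean of 1 CPM, 44 with DESeq2, 45 with limma on FPKM, 45 without Vehicle replicates 7 and 8, and 33 to 45 without 1 library (33 without Vehicle replicate 1, 34 without TDM replicate 5). A fit with muscle as covariate left 1 risen and 228 genes in all were called, in place of 4090. For Vehicle against Blank, 0 of the 45 rose in the main analysis, 8 with DESeq2 and 0 to 3 without 1 library (3 without Vehicle replicate 4 or 5). The genes called in that comparison numbered 475 in the main analysis, 1433 with DESeq2, 2 with no filter, 1 with the muscle covariate, 84 without Vehicle replicates 7 and 8, and 0 to 1289 (without Vehicle replicate 7) without 1 library. In 7 of those 27 fits 0 genes were called; they left out Vehicle replicates 1, 3, 6 and 8 and Blank replicates 4, 6 and 9, in turn. The fit lacking Blank replicate 7 called 1 gene. In 7 others the count moved by over 1.5 times (TDM replicate 7, Vehicle replicates 4, 5, 7 and 9, and Blank replicates 1 and 3). The cause of these shifts was not tested. Among the 45 genes, no fold change that was called in the main analysis or in an alternative changed sign. Other genes were not checked for this.

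No label says that a replicate number marks a shared animal, batch or day. Of 27 pairs with the same number, 11 had deviations correlated above 0.1, and the range was -0.40 to 0.38. These correlations were not set against a reference value, so they do not settle whether the numbers pair the libraries. With the number as a replicate block, 40 of the 45 rose against Vehicle, 45 against Blank and 0 for Vehicle against Blank, where 598 genes were called in all. A library correlated best with its own number for 1 of 9, 3 of 9 and 3 of 9 numbers in the 3 comparisons.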

Other observations

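The 45 genes and the 43 DNA replication genes did not keep 1 ratio across libraries. The mean log2 CPM of the mitosis genes minus that of the replication genes was -0.04 ± 0.11 in TDM, -0.18 ± 0.21 in Vehicle and -0.40 ± 0.34 in Blank (SD, n = 9 each). It ranged from -0.24 to 0.11 in TDM, from -0.65 to 0.12 in Vehicle and from -0.85 to 0.10 in Blank, so the groups overlapped. In Vehicle replicate 9 it lay at -0.65, and in Blank replicates 7, 8, 9 and 5 at -0.85, -0.84, -0.64 and -0.56, while each of the other 22 libraries lay at or above -0.30. These 5 libraries had mitosis genes low relative to replication genes, and the groups were not tested on this difference.

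Tnnc2, a troponin gene of fast muscle that lies across Ube2c on the other strand, was counted at 0 to 7 reads in the 27 libraries, where Acta1, muscle actin, averaged 7875 CPM in TDM, 15970 CPM in Vehicle and 12450 CPM in Blank.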
